A study of Mus musculus with 4 samples.

Results

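The genes described here are 10 regulators and products of the epithelial-mesenchymal transition, *Snai1*, *Snai2*, *Zeb1*, *Zeb2*, *Twist1*, *Vim*, *Esrp1*, *Esrp2*, *Ovol1* and *Ovol2*. They were chosen by symbol, with earlier results of these data known, and all 10 were found once among the 31055 genes of the count matrices. Epithelial cells are joined side by side on a basement membrane, and in the transition they give up these junctions and become single, migrating mesenchymal cells, as happens in the primitive streak, in the somites and in the neural crest. *Snai1*, *Snai2*, *Zeb1*, *Zeb2* and *Twist1* encode transcription factors that repress epithelial genes such as E-cadherin, and *Vim* encodes the intermediate filament vimentin of mesenchymal cells. On the other side, *Esrp1* and *Esrp2* encode splicing regulators of epithelial cells, and *Ovol1* and *Ovol2* encode zinc finger repressors that hold cells in the epithelial state.

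The genes were followed in scRNA-seq of E8.5 mouse embryos, in WT embryos and in embryos without the transcription factor GRHL3, which is needed for closure of the caudal neural tube. Both genotypes came from *Grhl3* heterozygous parents on a pure C57BL/6 background, and the null allele is constitutive, so that the *Grhl3*-null embryos lack the gene in every tissue. The caudal parts of 5 WT and of 3 *Grhl3*-null embryos were dissociated and pooled by genotype, and 2 droplet reactions were run on each pool. Every p-value below therefore compares 2 pools, while the spread between libraries comes from repeating the reaction on 1 pool, not from different embryos.

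After filtering, the 4 libraries held between 4781 and 5459 cells with a median of 33391 to 38070 UMIs per cell, where a unique molecular identifier (UMI) marks 1 captured transcript. Clustering without the 10 genes gave 17 clusters, of which 14 could be named after a cell type from its marker genes and held 81.31% of the 20198 cells. The names are rebuilt from markers that the study chose on these samples, and each is therefore written as "-like". One of them joins cells of the surface ectoderm (SE) with cells of the neural plate border (NPB), where it meets the neural plate, and is called the SE/NPB-like class. The cells of male embryos were recognised by Y-linked genes and those of female embryos by *Xist*, and the pools differed in sex. In the paraxial mesoderm-like class 13.5% and 15.9% of the sexed WT cells were male against 82.6% and 84.1% of the *Grhl3*-null cells. The members' calls in the SE/NPB-like class are therefore also given within each sex, and those in other classes by the number with the same direction in both. The pre-somitic mesoderm-like class held 506 and 492 WT cells against 4 and 3 *Grhl3*-null cells, so that it had values in WT alone. Only 0.201% and 0.207% of its sexed WT cells were male, so its WT levels come almost wholly from female embryos. The primordial germ cell-like class held only 5 to 26 cells per library. At most 7 kept barcodes were shared between any 2 libraries. Values are given in the order replicate 1, replicate 2, as counts per 1e6 (CPM), the share of a gene in the summed UMIs of a class in a library.

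In mm10 the genes lie on different chromosomes or far apart. *Snai1* (ENSMUSG00000042821) lies on the plus strand of chromosome 2 from 167538195 to 167542814, *Zeb2* (ENSMUSG00000026872) on the minus strand of chromosome 2 from 44983632 to 45117395, and *Vim* (ENSMUSG00000026728) on the plus strand of chromosome 2 from 13573927 to 13582826. *Esrp1* (ENSMUSG00000040728) lies on the minus strand of chromosome 4 from 11331933 to 11386783, *Esrp2* (ENSMUSG00000084128) on the minus strand of chromosome 8 from 106130319 to 106136974, *Ovol1* (ENSMUSG00000024922) on the minus strand of chromosome 19 from 5549136 to 5560646, and *Ovol2* (ENSMUSG00000037279) on the minus strand of chromosome 2 from 144305175 to 144332146. All 10 are protein-coding, and none overlaps another counted gene on its own strand. Counted genes lie on the opposite strand of *Zeb2* (*Zeb2os*), *Esrp1* (*Gm26663*), *Esrp2* (*Nfatc3*) and *Ovol2* (*1700108N11Rik*). The strand setting of the counting is not given in the sources used here.

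Promoter sequences of 300 bases around a start site were at hand in the RefSeq table of GRCm38.p6 for *Snai1*, *Zeb2*, *Twist1*, *Vim* and *Ovol2*, and there were no entries for *Snai2*, *Zeb1*, *Esrp1*, *Esrp2* and *Ovol1*. The E-box CAGGTG, the letters bound by Snail and Zeb factors, was searched on both strands. It occurred in the *Snai1* promoter alone, once and in the reverse orientation, starting 126 bases before the start site. The match is printed because it lies in front of a member that encodes such a repressor, with the match in capitals, on the plus strand of chr2:167538057-167538086.
Snai1 promoter: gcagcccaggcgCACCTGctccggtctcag
The same letters were held by 6640 of 32851 promoters of this length (20.2%). The palindrome AACCGGTT, letters that Grainyhead factors bind, was in none of the 5 genes' promoters and in 48 (0.146%) of all promoters, and no match says only that these letters are not in the window.

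In WT cells the mesenchymal transcription factors had their highest levels in different classes. *Snai1*, which represses E-cadherin as cells leave the streak, was highest in the Mesenchyme 1-like class at 120 ± 7.3 CPM (SD, n = 2 libraries, as for all means below) and in the pre-somitic mesoderm-like class at 119 ± 1.8 CPM. These 2 did not differ beyond their spread, and the somitic mesoderm-like class followed at 63.5 ± 0.017 CPM and the paraxial mesoderm-like class at 38.4 ± 0.59 CPM. *Snai2*, a second Snail repressor known from the neural crest, reached 39.4 ± 4.0 CPM in the Mesenchyme 1-like and 36.1 ± 3.1 CPM in the Mesenchyme 2-like class, whose libraries overlapped. Next for *Snai2* was the SE/NPB-like class with 9.44 ± 1.6 CPM. No library of the intermediate mesoderm-like class, the next in order at 5.02 ± 0.11 CPM, reached that level.

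*Twist1*, a bHLH factor of mesenchyme, was highest in the Mesenchyme 1-like class (333 ± 20 CPM), with 136 ± 2.7 CPM in the paraxial mesoderm-like class. It was again at a middle level of 25.8 ± 1.9 CPM in the SE/NPB-like class, the fifth in order, which overlapped with the intermediate mesoderm-like class. In the gut-like class, another epithelium of the tissue, *Twist1* stood at 4.62 ± 0.80 CPM. The 2 *Zeb* genes, repressors of E-cadherin with zinc finger clusters at both ends, were spread more widely. *Zeb1* was highest in the endothelium-like class (70.3 ± 2.9 CPM) and *Zeb2* in the paraxial mesoderm-like (111 ± 1.9 CPM) and neuroepithelium-like (104 ± 3.9 CPM) classes. Both were low in the SE/NPB-like and gut-like classes. *Zeb1* stood there at 2.32 ± 1.3 and 2.07 ± 0.79 CPM, and *Zeb2* at 10.7 ± 3.2 and 8.12 ± 1.9 CPM. The libraries of these 2 classes overlapped for both genes, and no fitted class was lower. In the neuroepithelium-like class, also an epithelium, *Zeb1* stood at 24.5 ± 0.51 CPM. The highest class of 4 of these genes changed with the clustering. At resolution 0.8 it was the pre-somitic mesoderm-like class for *Snai1*, the Mesenchyme 2-like class for *Snai2*, the paraxial mesoderm-like class for *Twist1* and the neuroepithelium-like class for *Zeb2*.

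*Vim* was highest in the endothelium-like class at 1270 ± 51 CPM, followed by the Mesenchyme 2-like class at 522 ± 13 CPM and the notochord-like class at 475 ± 82 CPM, which overlapped. Its level was 53.4 ± 7.3 CPM in the SE/NPB-like class and 52.6 ± 1.9 CPM in the gut-like class, again overlapping, and lower only in the NMP-like (neuromesodermal progenitor) class at 41.0 ± 2.0 CPM and the erythroid-like class at 23.8 ± 19 CPM. Vimentin transcripts were thus measured in the SE/NPB-like and gut-like classes too, at a level far below that of endothelium and mesenchyme.

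The epithelial regulators were concentrated in few classes. *Esrp1* was highest in the SE/NPB-like class (92.1 ± 2.6 CPM), followed by the primordial germ cell-like (71.6 ± 10 CPM, from 65 UMIs) and gut-like (55.7 ± 2.1 CPM) classes. It was at 9.32 ± 1.9 CPM in the notochord-like and 5.73 ± 0.38 CPM in the NMP-like class, and at 1.31 CPM or less in the other 9 classes. *Esrp2*, its paralogue, followed the same order without the germ cells, with 12.1 ± 0.83 CPM in the SE/NPB-like, 5.72 ± 0.22 CPM in the gut-like and 3.48 ± 1.0 CPM in the notochord-like class. *Ovol1*, a repressor known from the epidermis, stood at 8.61 ± 0.42 CPM in the SE/NPB-like class, against 2.04 ± 0.035 CPM in the gut-like and 1.52 ± 0.28 CPM in the intermediate mesoderm-like class. *Ovol2*, which is needed for neural tube and heart development in the mouse, reached 10.97 ± 4.1 CPM in the primordial germ cell-like class from 9 UMIs, and 8.44 ± 0.40 and 7.01 ± 1.1 CPM in the SE/NPB-like and gut-like classes. Of all UMIs in the 2 WT libraries, the SE/NPB-like class gave on average 70.0% of those of *Ovol1*, 51.9% of *Esrp2*, 50.1% of *Esrp1* and 47.0% of *Ovol2*, although it held 461 of the WT cells.

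**Figure D1:**
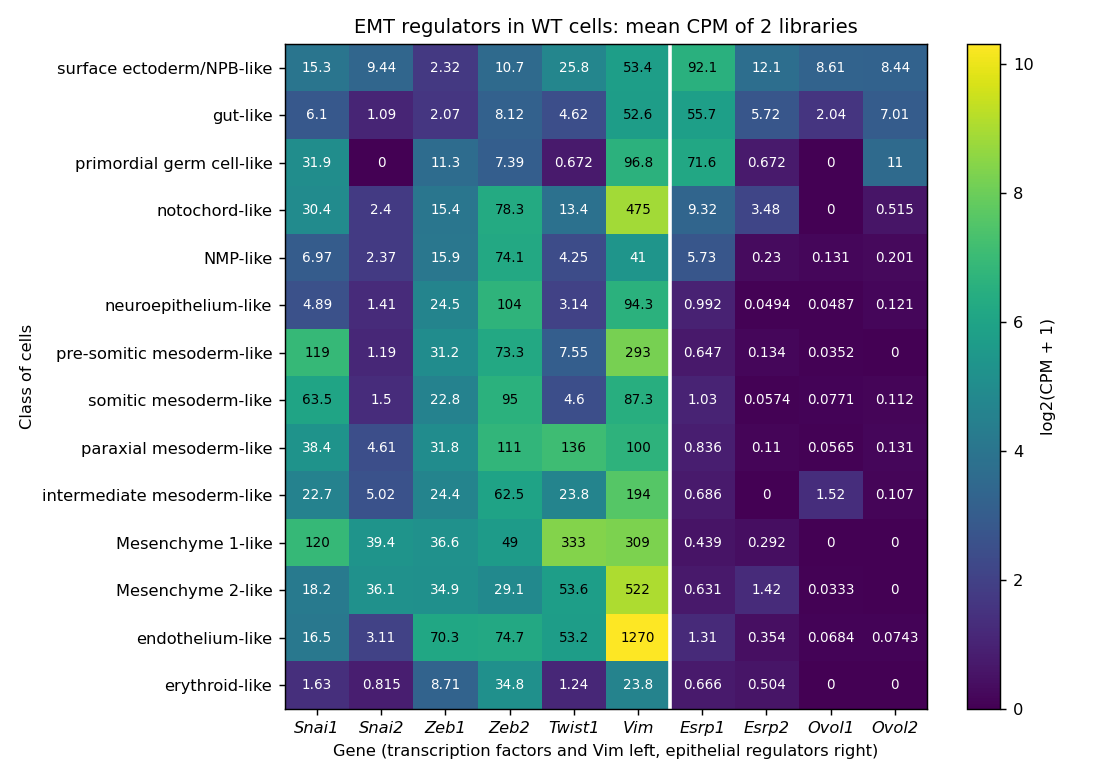
Mean level of each gene in the 14 named classes of the WT libraries, with classes in rows (SE, surface ectoderm and NPB, neural plate border), genes in columns and the CPM printed in each cell, shaded by log2(CPM + 1). *Esrp1*, *Esrp2* and *Ovol1* are highest in the SE/NPB-like class, and *Zeb1* and *Zeb2* are low there and in the gut-like class.

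Across the 14 WT classes the *Zeb* genes ran against the epithelial genes. Over log2(CPM + 1) of the class means, Pearson's r was -0.88 between *Zeb2* and *Ovol2*, -0.80 between *Zeb2* and *Esrp1* and -0.80 between *Zeb1* and *Esrp1*, whereas it was 0.96 between *Esrp1* and *Ovol2* and 0.84 between *Snai2* and *Twist1*. *Snai1* stood apart from the epithelial genes only weakly, with r between -0.22 and -0.14. The other mesenchymal members had no clear opposition to them either. Their r lay between -0.29 and 0.14 for *Snai2*, -0.35 and 0.05 for *Twist1*, and -0.35 and -0.14 for *Vim*. All 14 points come from the same 2 libraries, so these values describe the classes only. The genes with the most similar profiles were epithelial genes for the epithelial members. They were *Mapk13*, *St14* and *Cdcp1* for *Esrp1* (each r = 0.98), *Perp*, *Trim29* and *Krt7* for *Esrp2* (0.94 to 0.92), *2210011C24Rik* and *Ppl* for *Ovol1* (0.97 and 0.96) and *Bspry*, *Ap1m2* and *Tjp3* for *Ovol2* (0.99 to 0.98). For the mesenchymal members they were *Mical1*, *Tbc1d7* and *Wwp1* for *Snai1* (0.92 to 0.86), *Nexn*, *Ptges* and *Tmem119* for *Snai2* (0.92 to 0.89), *Dennd5a* and *Cep170* for *Zeb1* (0.91 and 0.89), *Zeb2os*, *Prps1* and *Cycs* for *Zeb2* (0.92 to 0.90), *Pdgfrb*, *Sar1a* and *Prrx2* for *Twist1* (0.91 to 0.88) and *Nhsl2*, *Sept7* and *Sdc3* for *Vim* (0.91 to 0.88). The likeness of *Zeb2* and *Zeb2os*, which lie on opposite strands of 1 locus, cannot be told apart from shared reads.

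The SE/NPB-like class held 14 of the 15 markers of that cell type among its 30 leading genes and 245 and 216 WT against 252 and 246 *Grhl3*-null cells. *Grhl3* itself checked the labels there. The WT libraries held 442 and 326 of its UMIs, from 125 of 245 and 116 of 216 cells, against 3 and 4 UMIs in the *Grhl3*-null libraries. WT cells with a *Grhl3* UMI held more of the splicing regulators than those without. *Esrp1* was at 104 against 76.9 CPM in replicate 1 and at 101 against 66.9 CPM in replicate 2. *Esrp2* was at 13.8 against 7.62 CPM and at 15.6 against 6.46 CPM. *Vim* lay the other way in both libraries, at 45.8 against 80.6 and 42.3 against 60.9 CPM. So did *Twist1* at 19.7 against 32.8 and 24.4 against 33.1 CPM, and *Snai1* at 13.1 against 24.7 and 11.9 against 16.0 CPM. *Snai2* was at 7.63 against 15.7 CPM and, with a small gap, at 7.87 against 9.30 CPM. *Zeb1* was also lower with *Grhl3* in both, but from only 7 to 22 UMIs in each part. The share of all genes lower in both libraries was not computed. *Zeb2* was at 11.7 against 15.2 CPM in replicate 1 and at 8.82 against 7.75 CPM in replicate 2. *Ovol1* was higher with *Grhl3* in replicate 1 (11.7 against 4.12 CPM) and nearly equal in replicate 2 (8.46 against 8.01 CPM), and *Ovol2* went opposite ways in the 2 libraries. Cells with a *Grhl3* UMI were also deeper, with a median of 62419 against 33761 and 64412 against 29958 UMIs, so these are descriptions without a test.

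In the SE/NPB-like class, with both sexes together, *Esrp2*, *Ovol1*, *Esrp1* and *Vim* fell in *Grhl3*-null cells, and no member was called higher. In male cells alone *Vim* rose, as given below. UMIs were summed over the cells of the class in each library and compared in edgeR by the quasi-likelihood method, with p-values adjusted after Benjamini and Hochberg over all genes, and a gene was called at an adjusted p under 0.05. In such sums, fewer cells of one kind within a class and less RNA per cell cannot be told apart. Of the 10 members, all of which passed the filter on low counts, 4 were called, beside 14% of the 12513 genes tested. As the members were chosen with earlier results of these data known, such counts here and below are not independent evidence. In these sums over both sexes the 4 were all lower, beside 8.27% of all genes called lower and 5.77% called higher. *Esrp2* and *Ovol1* fell by more than 2-fold, beside 1.8% of all genes called with such a change in either direction. The median size of the log2 fold change was 0.28 over the members and 0.14 over all genes tested.

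*Esrp2* was at 11.6 and 12.7 CPM in the WT libraries and at 3.19 and 3.26 CPM in the *Grhl3*-null libraries, from 153 and 156 against 41 and 35 UMIs. Both null libraries were below both WT libraries, and the gap was much wider than the spread in either genotype. The level was 3.86-fold higher in WT, a log2 fold change of -1.95 ± 0.17 (SE, adjusted p = 1.5e-07). The share of cells with an *Esrp2* UMI was 33.9% (95% Clopper-Pearson interval 28.0 to 40.2%) and 37.0% (30.6 to 43.9%) in WT against 13.1% (9.19 to 17.9%) and 13.8% (9.77 to 18.8%) in null libraries. These intervals cover counting error only. With each cell thinned to 7500 UMIs the shares were 7.35% and 5.56% against 4.37% and 2.44%, in the same order but with overlapping intervals. In the neuroepithelium-like class, which should lack the gene, at most 0.426% of the cells of a library held an *Esrp2* UMI, at a median of 33923 to 35542 UMIs per cell against 35870.5 to 42530 in the SE/NPB-like class.

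*Ovol1* was at 8.91 and 8.32 CPM in WT and 3.03 and 2.51 CPM in *Grhl3*-null cells, from 118 and 102 against 39 and 27 UMIs. The genotypes did not overlap, as for *Esrp2*. The level was 3.16-fold higher in WT (log2 fold change -1.66 ± 0.19, adjusted p = 6.4e-06). A UMI was found in 30.2% (24.5 to 36.4%) and 31.0% (24.9 to 37.6%) of WT cells and in 13.5% (9.53 to 18.3%) and 8.13% (5.04 to 12.3%) of null cells. After thinning these were 5.31% and 6.02% against 3.17% and 0.813%. The neuroepithelium-like class held an *Ovol1* UMI in at most 0.213% of the cells of a library.

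The paralogues of these genes changed less or were not called. *Esrp1* was at 93.9 and 90.3 CPM in WT and 71.5 and 78.6 CPM in *Grhl3*-null cells, again without overlap, and was 1.26-fold higher in WT (log2 fold change -0.34 ± 0.057, adjusted p = 4.1e-04). *Ovol2* stood at 8.15 and 8.73 CPM in WT and 8.40 and 7.73 CPM in null cells, so that the genotypes overlapped (-0.10 ± 0.15, adjusted p = 0.73). Within the 2 pairs, the *Esrp2* and *Ovol1* transcripts thus differed by over 3-fold between genotypes, *Esrp1* by less, and *Ovol2* had no difference that could be detected at this depth. The differences between paralogues were not tested themselves.

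None of the 5 mesenchymal transcription factors was called. *Snai1* was at 17.4 and 13.2 CPM in WT and 14.6 and 10.9 CPM in *Grhl3*-null libraries (fold change of -0.29 ± 0.15 on the log2 scale, adjusted p = 0.21). *Snai2* was at 10.6 and 8.32 against 12.3 and 11.1 CPM (0.27 ± 0.14, adjusted p = 0.24), and *Twist1* at 24.5 and 27.2 against 25.3 and 29.97 CPM (0.05 ± 0.099, adjusted p = 0.79). The *Snai2* libraries did not overlap between genotypes, but with 2 against 2 libraries the smallest 2-sided exact permutation p is 0.33. *Zeb1* was at 3.25 and 1.39 against 2.41 and 2.33 CPM from only 17 to 43 UMIs a library, and *Zeb2* at 13.0 and 8.48 against 12.8 and 9.12 CPM (-0.02 ± 0.33 and -0.01 ± 0.18, adjusted p = 0.98 and 0.99). For both *Zeb* genes the 2 WT libraries lay further apart than the genotype means did. *Snai1* was called without WT replicate 2 (-0.47) and without *Grhl3*-null replicate 1 (-0.54), each with an adjusted p = 0.027. *Twist1* was called at clustering resolution 0.8 (0.25, adjusted p = 0.049).

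*Vim* was at 58.5 and 48.2 CPM in WT and 26.1 and 40.1 CPM in null cells, where the null libraries differed from each other by more than the WT libraries did. Its log2 fold change was -0.75 ± 0.12 (adjusted p = 3.6e-04), but DESeq2 on the same sums gave an adjusted p = 0.24. The direction differed between cells of the 2 sexes, which come from different embryos, so that sex and embryo cannot be told apart. In female cells *Vim* was at 72.3 and 59.5 CPM in WT and 28.4 and 38.8 CPM in null (log2 fold change -1.05). Male cells held 19.8 and 21.5 CPM in WT and 23.4 and 42.9 CPM in null (0.66). The 2 effects differed by 1.69 on the log2 scale in a test of the interaction of sex and genotype (adjusted p = 5.3e-09, beside 13.4% of all genes called in that test), and the male value was called in the opposite direction (adjusted p = 0.046).

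The other 3 called genes kept their direction in each sex. *Esrp2* was at 10.9 and 16.3 CPM in male and 12.4 and 12.4 CPM in female WT cells, against 3.62 and 3.17 and 2.86 and 3.69 CPM in null cells, which gave log2 fold changes of -1.99 in male and -1.98 in female cells. For *Ovol1* they were -2.04 and -1.40, and for *Esrp1* -0.54 and -0.27. None of these 3 was called in the interaction with sex, with adjusted p = 1, 0.40 and 0.11. In the class as a whole, 23.7% and 28.7% of the sexed WT cells and 57.5% and 53.1% of the null cells were male. *Esrp2* and *Ovol1* were also called in both parts of the class split by a UMI of *Trp63*, the master regulator of surface epithelium, a split added after the data were seen. In cells with *Trp63* their log2 fold changes were -1.81 and -1.59, and in cells without it -2.36 and -1.85. The null libraries without *Trp63* held only 7 and 8 UMIs of *Esrp2* and 13 and 5 of *Ovol1*. Cells without it were also shallower, in WT with a median of 33304 and 31437 against 51732 and 55845 UMIs. *Esrp1* and *Vim* were called with *Trp63* (-0.36 and -0.89) and not without it (-0.25 and -0.42, adjusted p = 0.23 and 0.32), where a library held only 63 to 81 cells.

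Markers of other cell types moved with genotype within the class. The summed level of the 15 neuroepithelium markers was 1435 and 1383 CPM in WT against 1668 and 1685 CPM in null, that of the 15 Mesenchyme 1 markers 984 and 1038 against 1173 and 1201 CPM, and that of 12 gut markers 1119 and 1168 against 944 and 1035 CPM. None of these markers was at 0 in a library. Of the summed levels of 15 marker lists of other types, those of 4 were higher in both null libraries than in both WT libraries, those of 6 were lower and those of 5 overlapped. Lists of mesodermal types were found on both sides, lateral plate mesoderm at 1346 and 1452 against 1603 and 1670 CPM and caudal mesoderm at 277 and 263 against 197 and 227 CPM. The erythroid markers summed to 106 and 75.9 against 48.6 and 54.2 CPM. The class's own 15 markers summed to 5500 and 5914 CPM in WT and 5553 and 5898 CPM in null, which overlapped. Their part in the results was not tested.

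**Figure D2:**
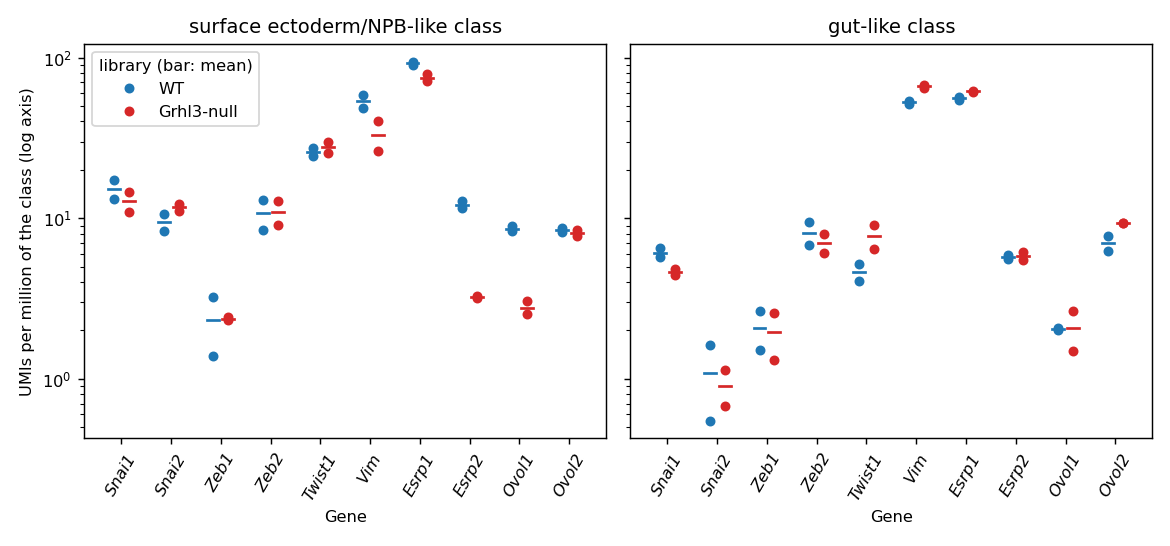
CPM of each of the 10 genes in each of the 4 libraries, on a log axis, in the SE/NPB-like class and in the gut-like class. Points are libraries, WT in one colour and *Grhl3*-null in the other. *Esrp2* and *Ovol1* are separated by genotype in the SE/NPB-like class and overlap in the gut-like class.

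In the gut-like class, where *Esrp1*, *Esrp2*, *Ovol1* and *Ovol2* are also transcribed, none of the 4 was called. *Esrp2* was at 5.56 and 5.88 CPM in WT and 6.18 and 5.47 CPM in null, and *Ovol1* at 2.06 and 2.01 against 2.64 and 1.48 CPM. Both overlapped between the genotypes. *Esrp1* at 57.2 and 54.2 against 61.2 and 62.3 CPM (log2 fold change 0.11, adjusted p = 0.17) and *Ovol2* at 7.76 and 6.26 against 9.39 and 9.30 CPM (0.37, adjusted p = 0.074) were higher in both null libraries without passing the test. *Twist1* (4.05 and 5.18 against 9.05 and 6.39 CPM, 0.71 ± 0.19, adjusted p = 0.012) and *Vim* (51.2 and 53.9 against 65.0 and 67.4 CPM, 0.30 ± 0.056, adjusted p = 8.4e-04) rose, which made 2 of 10 members, beside 19.5% of all genes called and 9.58% called higher. By DESeq2 *Twist1* was not called there (adjusted p = 0.12). Its rise was 2.45 in male and 0.29 in female cells on the log2 scale, a difference called in the interaction with sex.

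The difference of the genotype effects between the SE/NPB-like and gut-like classes was tested as an interaction of class and genotype. It was called for 5 of the 10 members, beside 13.7% of the 13363 genes tested. The effect in the SE/NPB-like class minus that in the gut-like class was -1.94 for *Esrp2* (adjusted p = 5.9e-09), -1.66 for *Ovol1* (1.6e-04), -1.05 for *Vim* (3.7e-11), -0.66 for *Twist1* (0.017) and -0.45 for *Esrp1* (1.5e-05) on the log2 scale. It was not called for *Ovol2* (-0.47, adjusted p = 0.13), nor for *Snai1*, *Snai2*, *Zeb1* and *Zeb2* (0.07 to 0.52, adjusted p = 0.50 to 0.95). In male cells alone the difference of *Vim* turned to 0.15. Of the 5 called differences, DESeq2 called 2, and the fits to male and to female cells called 3 each. Only the difference of *Esrp2* kept its call under all 15 alternatives, at -2.26 to -1.84. Those of *Ovol1*, *Vim*, *Twist1* and *Esrp1* were each lost under some. Without *Grhl3*-null replicate 1, the differences of *Ovol1* (-1.33, adjusted p = 0.059) and *Twist1* (-0.27, adjusted p = 0.58) were no longer called.

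Over the 12 classes with at least 20 cells in every library, 83 pairs of a member and a class passed the filter on low counts and 29 were called, beside 12.3% of all pairs of a gene and a class. Of these, 14 were higher and 15 lower in *Grhl3*-null cells, beside 5.62% and 6.68% of all pairs. A change of 2-fold or more was called in 7, beside 1.34% of all pairs. *Vim* was called most often, in 8 of 12 classes, and was lower in 7 of them. *Twist1* was called in 6 of 11 classes and was higher in 5, and DESeq2 also called 2 of the 6, those in the neuroepithelium-like and notochord-like classes, while it gave no adjusted p in the NMP-like class. By edgeR, *Snai2* was called in 4 of 10, *Zeb2* in 3 of 12, *Snai1* in 2 of 11 and *Zeb1* in 1 of 12. *Esrp1* was called in 2 of 7 and *Esrp2* in 2 of 4 classes. *Ovol1* and *Ovol2* passed the filter in the SE/NPB-like and gut-like classes alone and were called in 1 and 0 of them.

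Outside the SE/NPB-like class, the calls of 2-fold or more were 5 and fell on few genes. *Twist1* was at 2.93 and 3.36 CPM in WT and 6.58 and 8.12 CPM in null cells of the neuroepithelium-like class (log2 fold change 1.20 ± 0.15, adjusted p = 3.9e-05). In the notochord-like class it was at 8.85 and 17.9 against 27.9 and 45.3 CPM (1.39 ± 0.25, adjusted p = 0.0016). *Snai2* rose in the paraxial mesoderm-like class from 4.35 and 4.87 to 9.96 and 10.1 CPM (1.09 ± 0.10). The close values within a genotype come from repeats on 1 pool. By sex, the change of *Snai2* there was 2.79 in male and -1.47 in female cells. *Esrp1* was at 1.39 and 0.592 against 2.85 and 2.63 CPM in the neuroepithelium-like class (1.42 ± 0.29), a low level from 12 to 71 UMIs. *Esrp2* fell in the Mesenchyme 2-like class (-1.41 ± 0.42, adjusted p = 0.031) from a mean of 1.42 to 0.540 CPM, but was not called by DESeq2 (adjusted p = 0.30) and could be fitted by sex in female cells alone (-1.78, adjusted p = 0.075). *Zeb2* was called in the Mesenchyme 2-like class at 29.1 ± 1.0 against 45.9 ± 1.1 CPM (0.66) and in the neuroepithelium-like class at 104 ± 3.9 against 138 ± 0.0069 CPM (0.39). The first was called in each sex (0.43 in male and 0.56 in female cells). In the neuroepithelium-like class the change was 0.0379 in male cells (adjusted p = 0.77) and 0.39 in female cells, a difference called in the interaction with sex (adjusted p = 0.0027).

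**Figure D3:**
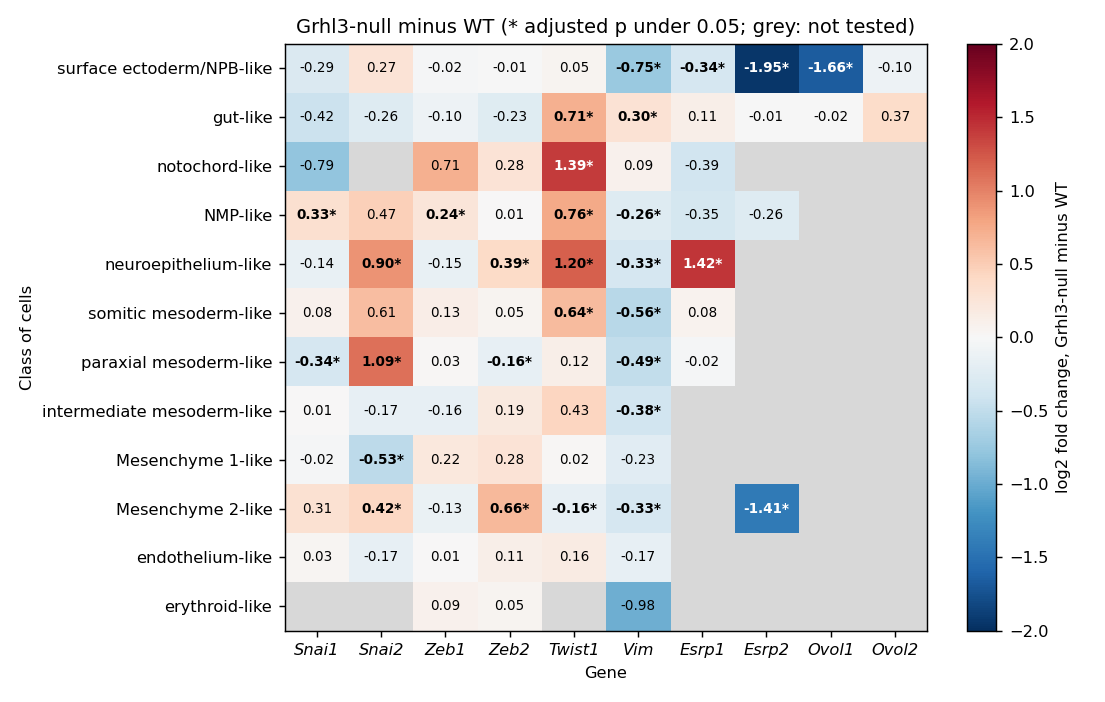
Log2 fold change of each gene between *Grhl3*-null and WT in each of the 12 fitted classes, with classes in rows and genes in columns. Colour gives the direction, an asterisk marks an adjusted p under 0.05, and grey cells did not pass the filter on low counts. The strongest falls are those of *Esrp2* and *Ovol1* in the SE/NPB-like class.

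Many of these calls did not have 1 direction in the 2 sexes. Of the 25 called pairs outside the SE/NPB-like class, 22 had both sexes fitted and 12 of these had the same sign in both. The share of all called genes with the same sign in both sexes was not computed, so this count is not particular to the members. In the paraxial mesoderm-like class, *Snai2* was 2.79 higher in male and 1.47 lower in female null cells on the log2 scale, *Vim* 0.76 higher in male and 1.16 lower in female cells, and none of the 4 calls there, beside 20.6% of all genes, kept its direction. In the neuroepithelium-like class *Esrp1* was at -0.74 in male and 3.73 in female cells and *Vim* at 1.28 and -2.09. *Twist1* was the exception, with the same sign in both sexes in all 5 called classes in which both could be fitted, although its female value in the somitic mesoderm-like class was 0.00884. The interaction of sex and genotype was called in 20 of 63 member and class pairs, beside 14.5% of all. The share of male cells in the neuroepithelium-like class was 12.4% and 15.7% in WT against 82.2% and 84.6% in null, and in the Mesenchyme 2-like class 13.6% and 15.1% against 74.9% and 72.8%.

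**Figure D4:**
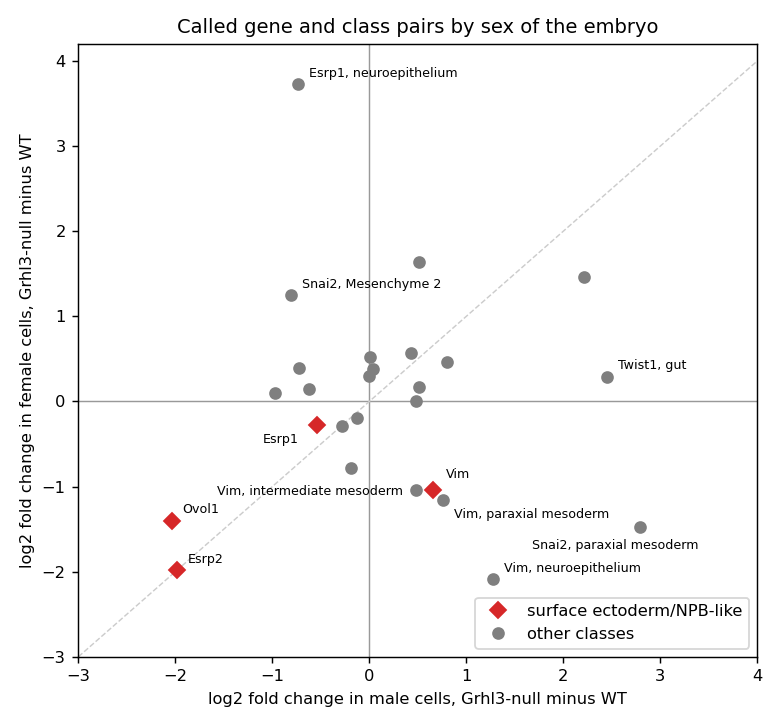
Log2 fold change between *Grhl3*-null and WT in female cells (y axis) against male cells (x axis) for the 26 called pairs of a gene and a class with both sexes fitted. Red diamonds are the SE/NPB-like class and grey points the other classes. *Esrp2*, *Ovol1* and *Esrp1* lie in the lower left field, and the *Vim* diamond lies in the lower right field.

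Other genes of the transition and of epithelia were read from 7 lists in the SE/NPB-like class, where the median log2 fold change of all 12513 genes was 0.00. Of the epithelial junction, keratin and protease genes, 22 of 22 were tested, 14 fell and 1 rose, with a median of -0.35, beside 8.27% of all genes called lower and 5.77% called higher in this class. Large falls were those of the claudins *Cldn3* (43.5 to 14.8 CPM, -1.60) and *Cldn4* (44.3 to 17.5 CPM, -1.38), which seal tight junctions. Both were lower in null cells of each sex. Falls of epithelial genes in this class were known from earlier results of these data, so the direction of this list is not independent evidence. Of the other epithelial transcription factors, 8 of 10 were tested and 5 fell, with a median of -0.32, among them *Tfap2c* (-0.94), a factor of the neural plate border, *Elf3* (-0.90) and *Klf4* (-0.72). None of this list rose. *Tfap2c* and *Elf3* were lower in cells of each sex, and *Klf4* could be fitted in female cells alone (-0.74). The study itself described *Tfap2c* as normal in pattern and level in *Grhl3*-null embryos, from plots of single cells in its own clusters.

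The shares over all genes for the lists below are the same, with 14% called in either direction, 5.77% higher and 8.27% lower. On the mesenchymal side, 9 of 11 other transcription factors of the transition were tested, and 1 was called, *Sox9*, a factor of neural crest and cartilage, which rose from 10.2 to 22.2 CPM (1.08, with 1.40 in male and 0.05 in female cells). Of 14 mesenchymal products 12 were tested, 3 rose and 5 fell, with a median of -0.18. The collagen gene *Col1a1* rose (1.05, with 0.60 in male and 1.73 in female cells), and the smooth muscle genes *Acta2* (-1.18) and *Tagln* (-0.96) fell. *Acta2* and *Tagln* had opposite signs in male (0.91 and 0.73) and female cells (-1.79 and -1.81), as *Vim* had. Of the primitive streak genes 2 of 8 rose, the growth factor gene *Fgf8* (0.61) and *T* (0.51), the latter encoding Brachyury, with a median of 0.10. Both had opposite signs in male (-0.21 and -0.13) and female cells (1.28 and 1.07). Of the neural crest genes 6 were tested, and *Pax7* fell (-1.12) while *Sox9*, which stands in both lists, and *Pax3* (0.32) rose, with a median of 0.26. *Pax7* was lower in each sex, and *Pax3* stood at -0.21 in male and 0.78 in female cells. None of the 7 splicing partners and targets of the Esrp proteins was called at the level of the whole gene (median -0.06). Their exon use was not analysed here, since a 3′ kit counts the ends of transcripts.

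**Figure D5:**
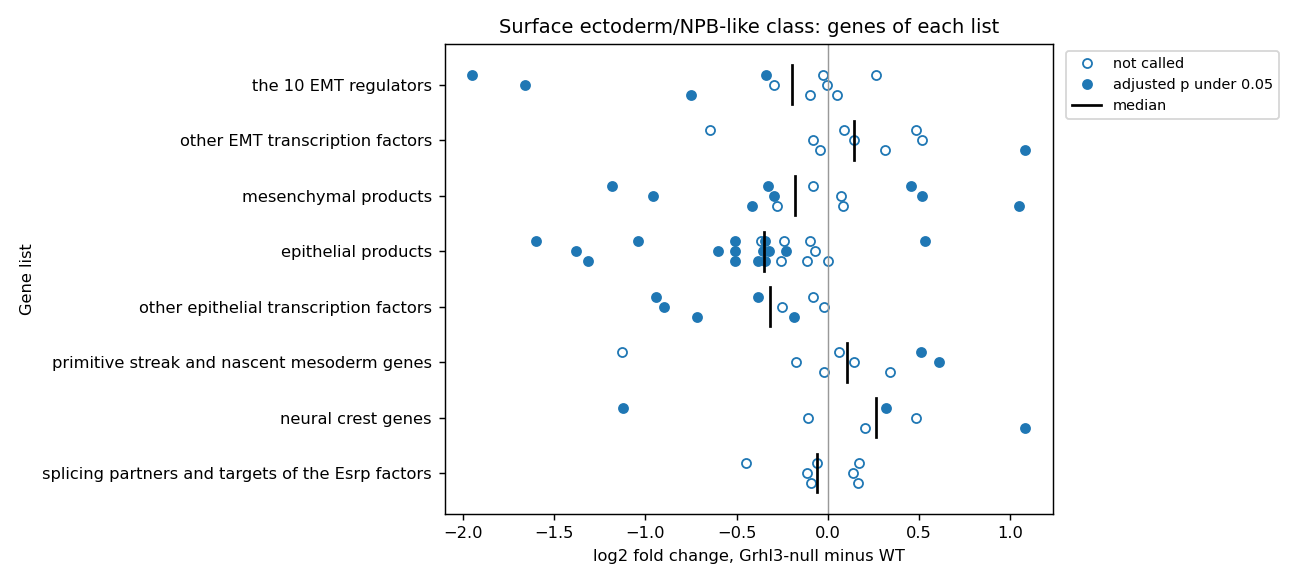
Log2 fold change between *Grhl3*-null and WT in the SE/NPB-like class for every tested gene of the 7 lists and for the 10 members, with 1 row per list. Filled points have an adjusted p under 0.05, and the bar gives the median of each row. The epithelial products lie mostly below 0, with *Cldn3* at -1.60 as the lowest.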

How the data were processed

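ScRNA-seq had been run with the 10X Genomics 3′ v3.1 kit on 2 WT and 2 *Grhl3*-null libraries. Reads had been mapped to mm10 by the authors in Cell Ranger (version 3.0.0 in the matrix headers). The deposited values are raw UMI counts, by gene and cell, for droplets called as cells. Cells were kept if they had 3000 or more genes, 7500 or more UMIs and no more than 7% of these from mitochondrial genes, and the kept libraries held 209833527 to 226723903 UMIs. The merged libraries were not integrated. They were normalised by sctransform 0.4.2 and clustered in Seurat 5.3.0 (R 4.3.3) on 3000 variable features less the 10 members, 30 principal components, 20 neighbours and resolution 0.4. Clusters were named by the type with most markers among their 30 leading genes, if these were 3 or more and exceeded those of the runner-up by over 1.5 times. Counts of the 2 libraries of a genotype were further apart than sampling noise allows (chi-square over its degrees of freedom 8.84 in WT and 15.6 in null), so each counted as 1 library.

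The sums of UMIs by class and library were tested in edgeR 4.0.16 (TMM, filterByExpr, quasi-likelihood test), class by class and with Benjamini-Hochberg adjusted p-values over all genes of a class, for classes with at least 20 cells in every library. The fits were tested on simulated data, where 200 of 200 genes changed by a log2 fold change of 2 were recovered in the genotype fit, with 13 wrong calls among 12477 genes, and 200 of 200 in the fit of the interaction of class and genotype, with 11 wrong calls among 13403 genes. The changed genes had at least 200 UMIs in a class, and the simulated spread was fixed, without differences between pools. Smaller changes and rarer genes were therefore not tried. DESeq2 1.42.0 was an alternative, as were other filters, clusterings and each sex alone. Male cells had 2 or more UMIs from 4 Y-linked genes and no more than 2 *Xist* UMIs, female cells 3 or more *Xist* UMIs and no more than 1 Y-linked UMI. Scrublet in scanpy 1.11.5 marked 0.0183% to 0.0418% of the cells as doublets, too few for a working threshold, so doublets were kept, and the 5% of cells with the highest scores were left out in an alternative.

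The members, the gene lists and the tests were chosen with earlier results of these data known. Named genes were the members, *Grhl3*, up to 3 called genes per list with the largest change, and the 3 genes most like each member over classes among genes with at least 10 CPM in a class. Some genes that this rule names are not reported here. Spliced reads were not analysed here.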

Additional observations from a re-analysis of the deposited data

Results flagged for a closer look

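In 25 results the genotype effect differed between groups of cells by a test of the difference itself. Of these, 5 are differences between the 2 epithelia, given as the log2 fold change in the SE/NPB-like class minus that in the gut-like class. They were -1.94 for *Esrp2*, -1.66 for *Ovol1*, -1.05 for *Vim*, -0.66 for *Twist1* and -0.45 for *Esrp1*.

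The other 20 are differences between the sexes, given as the log2 fold change in male minus that in female cells. *Vim* differed in 7 classes. Its effect was higher in male cells by 3.36 in the neuroepithelium-like, 1.93 in the paraxial mesoderm-like, 1.69 in the SE/NPB-like, 1.56 in the intermediate mesoderm-like, 0.65 in the endothelium-like and 0.60 in the somitic mesoderm-like class, and stood at -1.07 in the Mesenchyme 2-like class. *Snai2* differed by 4.28 in the paraxial mesoderm-like and by -2.04 in the Mesenchyme 2-like class, and *Esrp1* by -4.56 in the neuroepithelium-like and 1.10 in the NMP-like class. *Twist1* differed by 2.16 in the gut-like, 1.14 in the paraxial mesoderm-like and -0.69 in the endothelium-like class. *Zeb2* differed by -1.45 in the intermediate mesoderm-like, -1.11 in the paraxial mesoderm-like and -0.35 in the neuroepithelium-like class, *Zeb1* by 0.63 in the neuroepithelium-like class, and *Snai1* by -0.75 in the paraxial mesoderm-like and -0.69 in the Mesenchyme 2-like class. The cells of a sex come from the few embryos of that sex in a pool, so sex and embryo cannot be told apart. Neither *Esrp2* nor *Ovol1* was among these differences between the sexes.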

How the results depend on the processing

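The falls of *Esrp2* and *Ovol1* in the SE/NPB-like class kept their direction and their call under all 17 alternatives, with log2 fold changes of -2.36 to -1.81 and -2.04 to -1.40. Of the called members there, 4 under the report's settings, 4 to 5 were called when 1 library was left out and 2 in cells without a *Trp63* UMI, where *Esrp1* and *Vim* were lost. Male cells also gave 4 calls, but with *Vim* at 0.66, in the opposite direction.

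Over all classes, 29 member and class pairs were called, and 18 in male cells, 19 with DESeq2 and 25 to 31 without 1 library. Of all genes in the SE/NPB-like class, 1757 were called, and 595 with DESeq2, 397 without *Trp63* and 1163 to 1441 without 1 library, lowest without *Grhl3*-null replicate 1. The 5 differences between the epithelia became 3 in male and in female cells, 2 with DESeq2 and 3 to 5 without 1 library, 3 being without *Grhl3*-null replicate 1. For 6 of 10 genes the highest WT class remained at resolution 0.8, and *Snai1*, *Snai2*, *Twist1* and *Zeb2* changed theirs. Log-normalised clustering also moved *Snai1* and *Snai2*, and the members among the variable features moved *Snai2*.

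Direction turned in the following cases, given as log2 fold changes. In the SE/NPB-like class, in male cells, *Zeb1* stood at 0.76, *Zeb2* at 0.26, *Twist1* at -0.33 and *Ovol2* at 0.20, and in female cells *Snai1* at 0.10 and *Zeb2* at 0.25. Without doublets *Zeb1* stood at 0.63, *Zeb2* at 0.43 and *Twist1* at -0.12, and with the 5% mitochondrial limit *Zeb1* at 0.0304. At resolution 0.8 *Zeb1* and *Zeb2* stood at 0.58 and 0.0770, with the members among the variable features at 0.57 and 0.0642. Log-normalised clustering gave *Zeb2* at 0.18 and *Twist1* at -0.00873, cells with *Trp63* gave *Zeb1* at 0.0915 and cells without it *Zeb2* at 0.0329. Without 1 library the values ranged from -0.49 to 0.73 for *Zeb1*, from -0.29 to 0.34 for *Zeb2* and from -0.0636 to 0.17 for *Twist1*. None of these was called. In other classes, male cells turned *Snai2* to 0.80 (Mesenchyme 1-like) and -0.81 (Mesenchyme 2-like), *Zeb1* to -0.000223 (NMP-like), *Esrp1* to -0.74 (neuroepithelium-like), *Vim* to 0.48 (intermediate mesoderm-like), 1.28 (neuroepithelium-like) and 0.76 (paraxial mesoderm-like), and the difference of *Vim* between the epithelia to 0.15. Female cells turned *Vim* to 0.10 (Mesenchyme 2-like) and *Snai1*, *Snai2* and *Zeb2* to 0.15, -1.47 and 0.40 (paraxial mesoderm-like). Resolution 0.8 turned *Snai2* to 0.65 (Mesenchyme 1-like) and -0.0594 (Mesenchyme 2-like) and *Esrp1* to -0.0842 (neuroepithelium-like). In the Mesenchyme 1-like class *Snai2* stood at 0.32 with the members among the variable features and at 0.51 with log-normalised clustering. The causes were not tested.

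Replicate numbers did not pair the libraries. The correlation of the deviations of same-numbered libraries was 0.03 in the SE/NPB-like class and -0.17 to 0.12 over the classes. With the replicate number as a block, 4 members, 37 pairs, 2034 genes and 5 differences were called. In the erythroid-like class, at -0.17, 38 genes were called without the block, 24 with it and 32 with the numbers crossed. Low counts limit *Zeb1* in the SE/NPB-like and gut-like classes, and *Ovol1* and *Ovol2* could be tested in 2 classes alone.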

Other observations

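Classes without a test also held the members. In the primordial germ cell-like class *Esrp1* stood at 71.6 ± 10 CPM in WT and 122 ± 21 CPM in *Grhl3*-null cells, and *Ovol2* at 10.97 ± 4.1 and 15.9 ± 0.76 CPM, each from at most 39 cells of a genotype. *Esrp2* and *Ovol1* had at most 4 UMIs per genotype there, with *Ovol1* at 3.29 and 2.05 CPM in null from 2 UMIs each. With so few cells it cannot be said whether these paralogues are absent from germ cells. The largest unnamed cluster, with 3248 cells and with markers of Mesenchyme 1 as the most frequent among its leading genes, held *Twist1* at 68.2 ± 4.0 CPM in WT and 124 ± 8.6 CPM in null, *Snai2* at 12.9 ± 0.41 and 24.2 ± 0.57 CPM, *Snai1* at 32.2 ± 1.2 and 26.6 ± 1.4 CPM, and *Esrp1* below 1 CPM in both genotypes. As the cluster was left unnamed, its genotypes were not compared by a test.

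Within the WT SE/NPB-like cells, Pearson's r with *Grhl3* over the 461 cells was 0.31 for *Esrp1*, 0.30 for *Ovol1*, 0.26 for *Esrp2* and -0.04 for *Ovol2*, and -0.19 for *Vim* and -0.16 for *Twist1*. The cells share 2 libraries, and counts per cell are sparse, so these values are given as a description only.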
